A study of Homo sapiens
Mus musculus with 16 samples.

Results

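The tumours described here are 4 of the 16 xenografts of the study: they received nab-paclitaxel, and their human RNA stood closer to that of tumours without the drug than that of the other treated tumours did. They were chosen by a readout of the same libraries. A tumour treated with nab-paclitaxel was called weak where the human gene ENSG00000137868 held under 100 CPM (CPM, counts scaled to a common human library total), and strong otherwise. The rule took nab-paclitaxel 2 and 3 and combination 2 and 4 as weak, and left nab-paclitaxel 1 and 4 and combination 1 and 3 as strong. The 4 weak tumours were compared with the 8 tumours that received no nab-paclitaxel. Those 8 are called untreated with respect to that drug alone, since 4 of them received phenelzine.

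All tumours grew from MDA-MB-231, a human triple-negative breast cancer line, placed with Matrigel in the mammary fat pad of Balb/c nude mice, and were removed on day 50. Groups of 4 mice received intraperitoneal vehicle, nab-paclitaxel at 30 mg/kg on days 15, 22 and 29, phenelzine at 40 mg/kg daily from day 15, or nab-paclitaxel and phenelzine on those same schedules (the combination). The 8 tumours without nab-paclitaxel are thus 4 with vehicle and 4 with phenelzine, and of the 4 weak tumours 2 also received phenelzine. Each tumour gave 1 mRNA library, so mouse and library preparation cannot be told apart. The last dose of nab-paclitaxel came on day 29, so the RNA of day 50 is not that of the days after a dose.

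Nab-paclitaxel is paclitaxel bound to albumin. Paclitaxel stabilises microtubules and blocks the mitotic spindle, so that dividing cells stop in mitosis and may die or leave it with an abnormal chromosome number. Phenelzine inhibits monoamine oxidases. Nude mice lack a working thymus and so mature T cells, but keep macrophages, neutrophils, natural killer cells, fibroblasts and vessels, which enter a tumour as mouse tissue. In a xenograft human counts are therefore taken as tumour RNA and mouse counts as host RNA, which assumes a correct split of reads by species that was not tested. These are bulk samples, in which fewer cells of a type and less RNA per cell cannot be told apart.

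The gene used for the choice is given as a description only. ENSG00000137868 stood at 11.8 CPM of the human total in nab-paclitaxel 2, 22.2 in nab-paclitaxel 3, 1.99 in combination 2 and 8.74 in combination 4. The 8 tumours without the drug held 0.0920 to 0.380 CPM (median 0.191), which is 3 to 9 counts each. The 4 strong tumours held 122 to 290 CPM. The tumours nearest to the threshold were nab-paclitaxel 3, well below it at 22.2 CPM, and combination 1, above it at 122 CPM, and none lay between them.

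**Figure D1:**
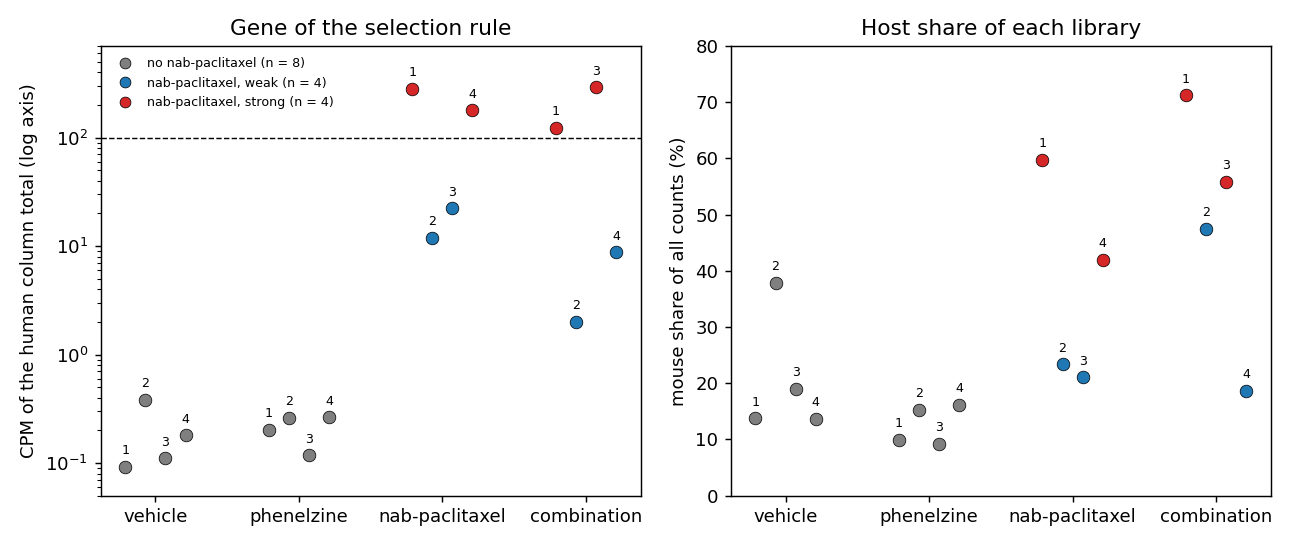
Left, CPM of ENSG00000137868 in each of the 16 tumours on a log axis, with the threshold of 100 CPM as a dashed line. Right, the share of all counts that fell in mouse genes, in percent; points are single tumours numbered as in the text, and combination 2, at 47.4%, is the weak tumour with the highest share.

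Human totals were 21.6 to 32.7 M counts in the weak tumours and 23.7 to 34.5 M without the drug, and mouse totals 6.60 to 19.5 M and 3.46 to 14.4 M. No 2 libraries of a group were copies: their counts differed by a chi-square per degree of freedom of at least 39.1 in human and 13.1 in mouse genes. Combination 2 stood apart from the other weak tumours by its host RNA, and vehicle 2 from the other tumours without the drug. The mouse share was 23.4% in nab-paclitaxel 2, 21.05% in nab-paclitaxel 3, 47.4% in combination 2 and 18.6% in combination 4. Their mean was 27.6% ± 13.3 (SD, n = 4), against 16.8% ± 9.04 (SD, n = 8) without the drug, where single tumours held 9.25% to 37.8%. The groups overlapped. The difference, averaged over tumours without and with phenelzine, was 10.8 percentage points (exact permutation test within each phenelzine state, two-sided, p = 0.124, where 225 arrangements allow no p below 0.00444). It was 1.17 points without phenelzine and 20.4 with it. Without combination 2 it was 3.58 points (exact permutation p = 0.467), without combination 4 it was 17.97 points, and without vehicle 2 it was 13.6 points (exact permutation p = 0.00667). With vehicle 2 left out fewer arrangements remained, and the p of 0.00667 is the lowest that they allow. The strong tumours held 57.2% ± 12.1 (SD, n = 4).

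Human genes separated the weak tumours from those without nab-paclitaxel, with more genes called higher than lower. Of 18407 human genes tested, 304 passed the adjusted p threshold of 0.05 in edgeR, a share of 1.65%. Of these 192 rose, 1.04% of the genes tested, and 112 fell, 0.608%. At an unadjusted p under 0.05 there were 2984 genes, 1453 higher and 1531 lower. The median log2 fold change of all tested genes was -0.01. The 4 weak tumours were chosen with expression values in view, so the p-values describe these 12 libraries and not an independent sample of treated tumours. The count rested on single tumours and on the fit: 69 genes passed without nab-paclitaxel 3, 138 without combination 4 and 197 without nab-paclitaxel 2. The split also turned in 1 of these runs, with 54 higher and 84 lower without combination 4. When the mouse share was added to the model 168 genes passed, 123 higher and 45 lower, of which 143 were among the 304. DESeq2 called 963 genes, the 304 among them.

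Rises were larger than falls. The 192 risen genes had a median log2 fold change of 1.42. Of these, 129 rose more than 2-fold, 72 more than 4-fold and 21 more than 16-fold. The 112 fallen genes had a median of -0.76, with 36 past 2-fold, 11 past 4-fold and 6 past 16-fold. The levels they came from also differed. Of the risen genes, 76 averaged under 1 CPM without the drug, 59 averaged 1 to 10 CPM and 57 at least 10 CPM. Of the fallen genes, 6, 15 and 91 did so, and 46 of the 91 averaged at least 100 CPM. These CPM are scaled by TMM and not divided by gene length. A level under 0.5 CPM in all 8 tumours without the drug and at least 1 CPM in all 4 weak tumours held for 2 genes, and the reverse for 0. In 38 of the risen and 9 of the fallen genes a library was at 0 counts. Of these, 2 risen genes were listed at 0 in all 8 tumours without the drug, and 1 fallen gene in all 4 weak tumours. The fitted folds of these genes depend on the prior count. With the 2 risen genes set to a lower bound from a floor of 3 counts, the median of the risen genes was again 1.42. A median of 192 genes could hardly move with 2 of them.

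All 4 weak tumours lay above all 8 without the drug in 330 of the 18407 genes (1.79%) and below all 8 in 237 (1.29%). Within the called genes this held for 143 of the 192 that rose and 71 of the 112 that fell; the test and the separation use the same values, so nothing is read from those counts. Risen genes made up 0.669% to 0.872% of the human counts in the weak tumours, 0.425% to 0.484% without the drug and 1.07% to 1.34% in the strong tumours. Fallen genes made up 0.948% to 1.05%, 1.42% to 1.69% and 0.961% to 1.13%.

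The largest rise among genes that met the naming conditions was that of ENSG00000117983. Its level was 4.15 CPM in nab-paclitaxel 2, 9.46 in nab-paclitaxel 3, 1.08 in combination 2 and 7.36 in combination 4. Without the drug it was at 0 in 5 of 8 tumours and reached at most 0.234 CPM. The groups did not overlap, and combination 2 was the lowest weak tumour. The rise was 6.34 on the log2 scale (SE 0.83, adjusted p = 0.00548), and the call held with any 1 library left out. Its size did not: the change was 8.15 without vehicle 2, 6.995 without phenelzine 2 and 5.35 without combination 4. The strong tumours held 67.8 to 136 CPM.

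The gene with the second largest rise stood at 6.02, 11.2, 0.586 and 4.80 CPM in nab-paclitaxel 2 and 3 and combination 2 and 4, in that order throughout, against at most 0.205 CPM without the drug. Combination 2 was again lowest, and the log2 change was 5.46 (SE 0.54, adjusted p = 0.00106), or 4.35 without combination 4. The gene in rank 3 stood at 4.27, 10.3, 1.32 and 5.65 CPM, against 0 to 0.322. The gene in rank 5 stood at 8.39, 21.5, 3.23 and 9.21 CPM, against 0.205 to 1.05. In each of these genes combination 2 was the lowest weak tumour and nab-paclitaxel 3 the highest. The gene in rank 6 stood at 50.3, 74.8, 19.2 and 72.7 CPM, against 0.456 to 7.46 without the drug, a log2 change of 3.93 (SE 0.46, adjusted p = 0.00262), or 3.29 without combination 4.

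The gene in rank 9 had another pattern in the strong tumours. It stood at 6.52, 6.64, 4.15 and 8.82 CPM in the weak tumours and at 0.263 to 1.27 without the drug, a log2 change of 3.33 (SE 0.30, adjusted p = 0.000895). The strong tumours held 4.84, 6.75, 12.2 and 5.24 CPM, a range that overlaps the weak one. In the other 9 of the 10 named rises every strong tumour lay above every weak one, which held in 15.4% of all 18407 genes tested. Strong and weak tumours were set apart by a readout, so this is a description only. The 10 changes ran from 6.34 down to 3.07 on the log2 scale, and 8 of the 10 genes averaged under 1 CPM without the drug.

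**Figure D2:**
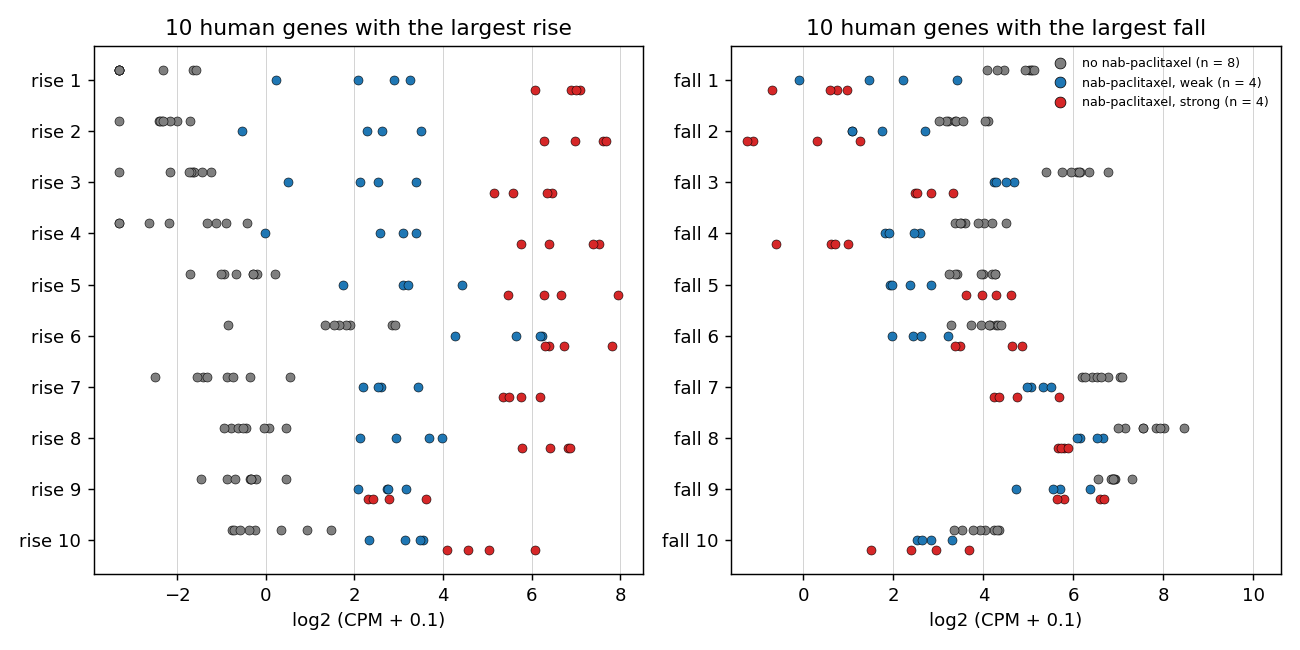
Level of the 10 named human genes with the largest rise (left) and fall (right), as log2 of CPM plus 0.1, 1 point per tumour. Weak tumours lie apart from the 8 without nab-paclitaxel by the naming rule. All strong tumours lie above all weak ones in 9 of the 10 rises, against 15.4% of all genes tested. They lie below all weak ones in 3 of the 10 falls, against 16.6%.

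The largest named fall was that of ENSG00000173110. Its level was 10.5 CPM in nab-paclitaxel 2, 2.64 in nab-paclitaxel 3, 0.831 in combination 2 and 4.55 in combination 4. Without the drug it ranged from 16.7 to 34.6 CPM (median 31.1). The groups did not overlap, although nab-paclitaxel 2 lay closer to the lower end of the untreated range than the others. The log2 change was -2.70 (SE 0.46, adjusted p = 0.0175), and the adjusted p was 0.0709 without nab-paclitaxel 3. The change was -3.57 without combination 4 and -3.36 without nab-paclitaxel 2. The strong tumours averaged 1.34 CPM.

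ENSG00000204388 stood at 100.2, 71.0, 67.2 and 91.6 CPM in the weak tumours, against 216 ± 72.1 CPM (SD, n = 8) without the drug, where single tumours held 127 to 352. The strong tumours held 50.0 to 58.4 CPM, below every weak one. The log2 change was -1.36 (SE 0.22, adjusted p = 0.0133), with an adjusted p of 0.0891 without nab-paclitaxel 3. The vehicle tumours averaged 257 CPM and the phenelzine tumours 175 CPM, so the change was -1.59 without phenelzine and -1.14 with it. These 2 changes did not pass a test of their difference (0.45, SE 0.41, adjusted p = 0.806).

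The named fall in rank 3 had the lowest adjusted p of the 10. It stood at 25.6, 22.5, 18.7 and 19.4 CPM in the weak tumours, against 42.0 to 109 without the drug, a log2 change of -1.68 (SE 0.19, adjusted p = 0.00220). Its level in the strong tumours was lower again, with a mean of 7.04 CPM. The falls in ranks 5 and 6 had another pattern. The gene in rank 5 stood at 7.05, 5.03, 3.66 and 3.84 CPM in the weak tumours, 9.34 to 18.9 without the drug and 17.8 on average in the strong tumours. The gene in rank 6 stood at 9.20, 3.79, 5.33 and 6.01 CPM in the weak tumours, 9.54 to 20.8 without the drug and 18.7 on average in the strong ones. That mean joins 11.1 and 10.1 CPM in the strong nab-paclitaxel tumours with 28.8 and 24.8 in the strong combination tumours. In both genes the weak tumours were lower than the untreated and the strong tumours alike. Both calls were lost without nab-paclitaxel 3 (adjusted p = 0.0661 each), and that in rank 6 also without combination 2 (0.0649) or combination 4 (0.0663). The weak and strong tumours were separated by a readout, so they were not tested against each other.

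**Figure D3:**
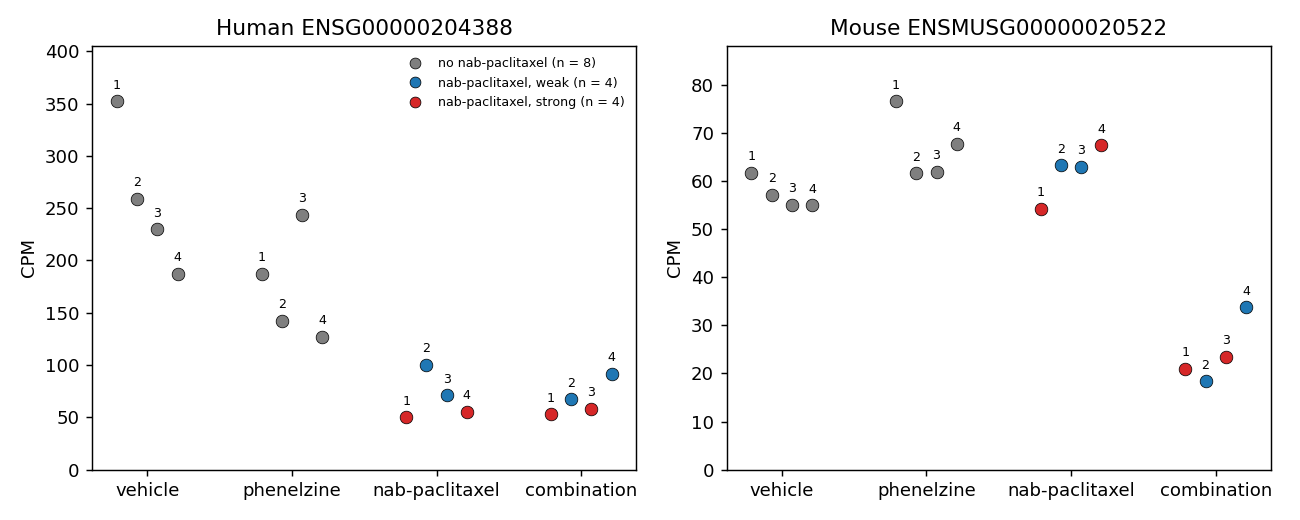
CPM of human ENSG00000204388 (left) and mouse ENSMUSG00000020522 (right) in each numbered tumour, by treatment. The human gene is at 67.2 to 100.2 CPM in the weak tumours against 127 to 352 without nab-paclitaxel; the mouse gene is low in the combination tumours and not in nab-paclitaxel alone.

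By the median of whole lists, the weak tumours lay between untreated and strong tumours for the risen genes, and not for the fallen genes. Single genes varied. The strong mean was below the weak mean in 39 of the 192 risen genes and 62 of the 112 fallen ones. For each tumour the median over the genes of a list was taken, as log2 CPM minus the mean of the 8 tumours without the drug. These are the genes called from the same libraries, so the medians describe spread among tumours only. For the risen genes it was 1.19 in nab-paclitaxel 2, 1.78 in nab-paclitaxel 3, 0.92 in combination 2 and 1.53 in combination 4. The tumours without the drug ran from -0.15 to 0.16 and the strong from 2.17 to 2.75. For the fallen genes it was -0.53, -0.68, -0.82 and -0.74 in the weak tumours. The tumours without the drug ran from -0.06 to 0.09 and the strong from -0.82 to -0.59, a range that overlaps the weak one. All 4 strong tumours lay above all 4 weak ones in 111 of the 192 risen genes and below them in 24 of the 112 fallen genes. Over all 18407 genes tested they lay above in 15.4% and below in 16.6%. Strong and weak were set apart by a readout and the genes were called from the weak tumours, so these counts are a description only.

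The 4 weak tumours were not alike. Combination 2 was the lowest of them in 116 of the 192 risen genes and nab-paclitaxel 2 in 57, while nab-paclitaxel 3 was the highest in 107. Over all 18407 genes tested combination 2 was lowest in 30.2%, nab-paclitaxel 2 was lowest in 24.8% and nab-paclitaxel 3 was highest in 22.8%. Combination 2 was also the lowest of the 4 in 47 of the 112 fallen genes, and nab-paclitaxel 2 was the highest in 52, against 25.5% of all genes tested. The genes were called from these same tumours, so the counts describe how the 4 differ within the lists and test nothing. The mouse share of 47.4% in combination 2 stood beside these values, and its part in them was not tested.

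Across all human genes only nab-paclitaxel 2 among the weak tumours lay within the untreated range of distance from the untreated mean. The other weak tumours lay just above that range, and the strong tumours further above it. The median absolute log2 distance over 14587 genes was 0.191 in nab-paclitaxel 2, 0.198 in nab-paclitaxel 3, 0.229 in combination 2 and 0.201 in combination 4. It was 0.141 to 0.197 in the tumours without the drug and 0.31 to 0.50 in the strong. Each untreated tumour was left out of the mean it was measured from.

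**Figure D4:**
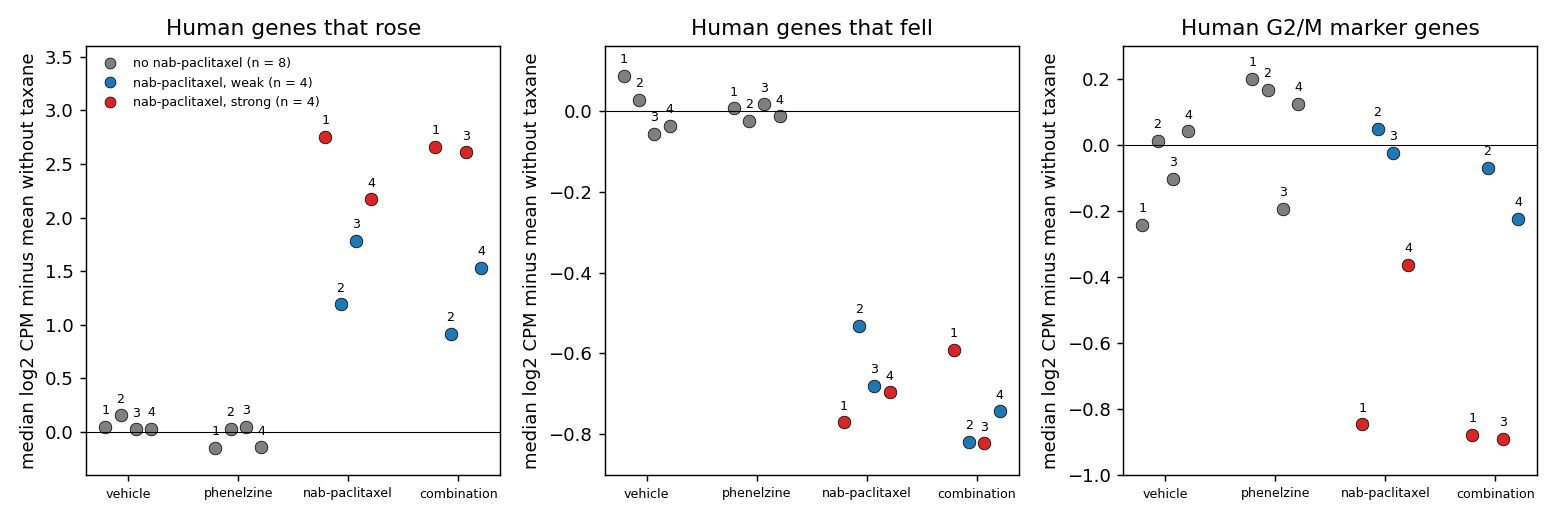
Median over genes of log2 CPM minus the mean of the 8 tumours without nab-paclitaxel, for the 192 risen genes, the 112 fallen genes and the human G2/M marker genes; each point is 1 numbered tumour. Weak tumours lie below the strong ones for risen genes (0.92 to 1.78 against 2.17 to 2.75), overlap them for fallen genes, and lie within the untreated range for G2/M genes.

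The difference with and without phenelzine could be set side by side from tumours that share no library. Weak nab-paclitaxel tumours were set against vehicle, and weak combination tumours against phenelzine. Across the 18407 human genes these log2 changes correlated with a Pearson r of 0.333 (Spearman rho 0.222), and 56.4% had the same sign. This is a description across genes, which are not independent. The risen genes had a median of 1.37 without phenelzine and 1.50 with it, and the fallen genes -0.65 and -0.77, but those genes were called from both states together. Across the 15227 mouse genes the same correlation was -0.02 and 49.8% had the same sign.

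**Figure D5:**
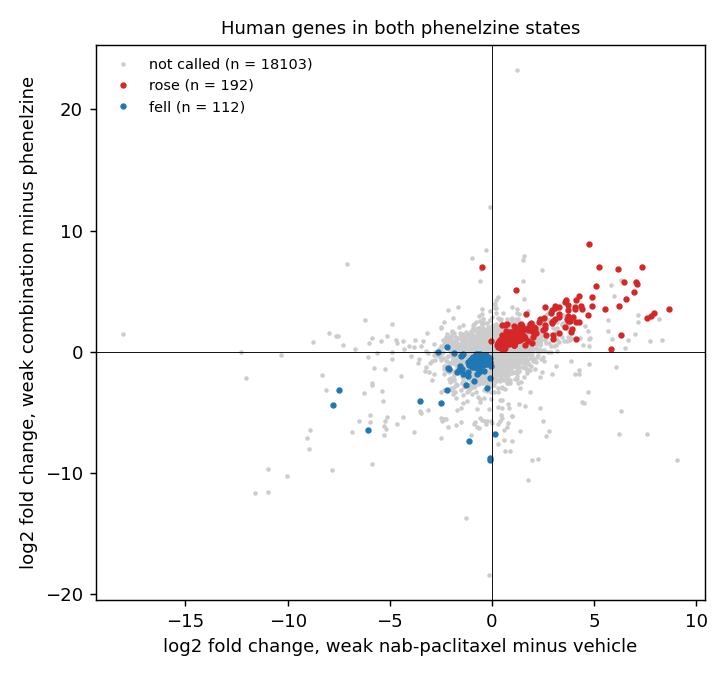
Log2 fold change of each human gene in the weak tumours without phenelzine (x axis) against that with phenelzine (y axis). Each point is 1 gene, coloured as risen, fallen or not called. The Pearson correlation over all genes shown is 0.333.

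A test of the difference between the 2 changes called 4 of the 18407 human genes, 0.0217%, with 1338 at an unadjusted p under 0.05. Each rests on 2 tumours a state. The first held 20.7 and 17.2 CPM in nab-paclitaxel 2 and 3 and at most 0.845 CPM in any other tumour of the study, strong tumours included (difference -5.59, adjusted p = 0.00116). The second was low in the same 2 tumours, at 4.43 and 5.16 CPM, while the weak combination tumours held 35.2 and 30.1 CPM and untreated tumours 20.1 to 30.8. Among the strong tumours combination 3 was also low, at 7.44 CPM, and the others held 18.2 to 26.7. The difference was 2.61 (adjusted p = 0.00414). The next was listed at 0 in combination 2 and 4, against 1.72 and 1.06 CPM in nab-paclitaxel 2 and 3 and 1.17 to 2.52 CPM without the drug. Among the strong tumours it was also at 0 in nab-paclitaxel 4, and the others held 0.368 to 0.777 CPM. Its fitted difference, -8.79, depends on the prior count and is no bound, and limma-voom did not call it (adjusted p = 0.244). The last held 69.6 and 67.7 CPM in the weak combination tumours, 150.3 and 144.6 in the weak nab-paclitaxel tumours and 132 to 163 without the drug, a difference of -1.12 (adjusted p = 0.0148), a call lost without nab-paclitaxel 2 (0.114), combination 2 (0.0656) or phenelzine 4 (0.0539). With all 16 libraries in the fit only the first of the 4 passed. The levels of the strong tumours in this last gene, 38.8 to 93.2 CPM, lay below the untreated ones in every case.

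Paclitaxel acts on dividing cells, so genes that mark the phases of the cell cycle were described, using lists of human and mouse Ensembl IDs held by the scran package. The 60 genes per phase were picked after the data had been seen. G1 is the gap before DNA synthesis, S the synthesis phase, and G2/M the stretch before and through mitosis. In human genes 59 of the 60 G2/M markers were tested: 0 rose, 0 fell by the edgeR test (10 at an unadjusted p under 0.05), 41 were lower, and the median log2 change was -0.12 against -0.01 over all tested genes. The tumour medians of this list were 0.05 in nab-paclitaxel 2, -0.02 in nab-paclitaxel 3, -0.07 in combination 2 and -0.22 in combination 4, all inside the untreated range of -0.24 to 0.20. The strong tumours ran from -0.89 to -0.36, and no weak tumour reached that range. Among the S markers 0 rose and 1 fell of 57 tested (median -0.07). Their tumour medians were -0.037, -0.064, -0.055 and -0.140 in the weak tumours, and nab-paclitaxel 3 and combination 4 lay below the untreated range of -0.062 to 0.069. Among the G1 markers 0 rose and 1 fell of 59 (median -0.04). Their tumour medians were 0.064, -0.097, -0.030 and -0.100, and the same 2 tumours lay below the untreated range of -0.095 to 0.164. The strong tumours were lower in both lists, from -0.427 to -0.181 for S and from -0.605 to -0.188 for G1.

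Of the mouse markers of G2/M, 59 were tested. Of these, 0 were called by edgeR (3 at an unadjusted p under 0.05), 51 were lower, and the median log2 change was -0.22 against -0.02 over all mouse genes tested. Tumour medians ran from -0.28 to -0.12 in the weak, from -0.31 to 0.26 without the drug and from -0.95 to -0.71 in the strong. The medians were -0.04 for G1 and 0.00 for S markers.

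In the edgeR fit no host gene passed. Of 15227 mouse genes tested, 0 were called by edgeR, a share of 0%, with 1127 at an unadjusted p under 0.05 (578 higher, 549 lower) and a lowest adjusted p of 0.0778. DESeq2 called 77 and limma-voom 1, and edgeR itself called 11 without combination 4. All 4 weak tumours lay above all 8 untreated tumours in 63 genes (0.414%) and below them in 39 (0.256%). The difference between phenelzine states called 0 genes, again 0%, with 887 at an unadjusted p under 0.05, a lowest adjusted p of 0.811 and 14 calls by DESeq2. The median absolute distance of mouse genes from the untreated mean was 0.23 to 0.38 in the weak tumours, 0.22 to 0.49 without the drug and 0.31 to 0.35 in the strong.

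The mouse genes given next had the lowest p among those that met the other naming conditions, and none passed. The first stood at 49.7, 77.3, 17.3 and 21.8 CPM against 0.764 to 6.75 without the drug, a log2 difference of 3.15 (SE 0.42, adjusted p = 0.0778). The second stood at 25.4, 46.2, 31.0 and 20.7 CPM against 5.57 to 13.4, a log2 difference of 1.82 (SE 0.25). The next stood at 16.2, 26.4, 17.5 and 16.9 CPM against 4.30 to 9.91, a log2 difference of 1.60 (SE 0.22). In each of these the 4 weak tumours lay above all 8, by the way they were picked, and nab-paclitaxel 3 was the highest.

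ENSMUSG00000055866 and ENSMUSG00000020522 were followed because earlier results on these data had turned on them. The first stood at 18.7, 23.6, 117 and 50.2 CPM in the weak tumours and at 14.8 to 53.2 without the drug, so only combination 2 lay outside that range. That range pools vehicle tumours, at 14.8 to 26.7 CPM, with phenelzine tumours, at 31.7 to 53.2. Its log2 difference was 0.56 (SE 0.25, adjusted p = 0.665), from 0.04 without phenelzine and 1.07 with it. These 2 changes did not pass the edgeR test of their difference (1.03, SE 0.50, adjusted p = 0.811). ENSMUSG00000020522 stood at 63.2, 63.0, 18.3 and 33.7 CPM against 54.9 to 76.5. The combination tumours, weak and strong, held 18.3 to 33.7 CPM, and the nab-paclitaxel tumours 54.2 to 67.4. The log2 difference was -0.61 (SE 0.15, adjusted p = 0.590, or 0.0267 by DESeq2), and the difference between phenelzine states was -1.45 (SE 0.30, adjusted p = 0.811).

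The files give Ensembl IDs only, and the human reference table holds 0 of them, so gene symbols, pathway lists, cell type markers and the tissue label could not be checked, and no gene is named beyond its ID. No sequence of a member was at hand to print.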

How the data were processed

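Whole-number counts per gene were deposited by the authors as 2 matrices, human and mouse, with 1 column for each of the 16 tumours. Trimmomatic 0.36, HISAT2 2.04, Picard, StringTie, edgeR and the builds hg38 and mm10 are named, per the submitters' processing notes, without role or order; the sources used here do not give the annotation, the use of strand or how reads were split between species. Counts at the low end are not plain tallies of single reads.

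Each matrix was fitted alone in R 4.3.3 with edgeR 4.0.16 (TMM, filterByExpr at a minimum count of 10, quasi-likelihood F test, 8 residual degrees of freedom) on the 12 compared libraries. The fit had 1 mean per treatment and averaged the effects over both phenelzine states. The SE given with a log2 change is its absolute size divided by the square root of the F statistic, not a separate estimate. ENSG00000137868 chose the tumours, so it was left out of the p-values and of the Benjamini-Hochberg adjustment over all genes tested. Levels are CPM scaled by TMM, except for the rule gene and totals. Intervals of the mouse share (Wilson, 95%) were at most 0.0323 points wide and cover counting error only. Alternatives used DESeq2 1.42.0, limma 3.58.1 and other settings; scran 1.30.0 supplied the cell cycle IDs. The fit was tested on simulated data.

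Named genes averaged 5 CPM or more in whichever group was higher, had groups that did not overlap and changed in the same direction in both states; the 10 largest of each direction were taken from 88 rises and 63 falls. The symbol condition of that rule could not be applied. The tumours and lists were chosen with earlier results of these data known. The deposited labels give 1 mouse per library, so p-values measure the spread between these libraries.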

Additional observations from a re-analysis of the deposited data

Results flagged for a closer look

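A tumour was singled out where it stood far from the others of its group by Dixon's test. The rule ran on 24 groups, of which chance picks about 1 in 20. The mouse share of combination 2, 47.4%, stood apart from the other weak tumours, and that of vehicle 2, 37.8%, from the other tumours without nab-paclitaxel. ENSG00000117983 was at 0.219 CPM in vehicle 2 and at 0 in the other 3 vehicle tumours. ENSG00000173110 was at 21.9 CPM in vehicle 3, below the other 3.

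The change between weak tumours and those without nab-paclitaxel differed with phenelzine, by the edgeR test of the difference, in 4 human genes. The differences (with minus without phenelzine, log2) were -5.59, 2.61, -8.79 and -1.12. The strong tumours were left out of that fit, and the weak ones were chosen by a readout. Whether the effect of nab-paclitaxel itself differed with phenelzine was therefore not tested.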

How the results depend on the processing

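The mouse share and each named gene kept their direction in every alternative run, but the split of called genes did not: without combination 4, 54 human genes were higher and 84 lower (192 and 112 in the main analysis), and the difference between phenelzine states had 1 positive and 3 negative calls, but 8 and 3 without nab-paclitaxel 3 and 33 and 25 by DESeq2. For human genes 304 were called in the main analysis, 963 by DESeq2, 168 with the mouse share as covariate and 69 to 287 with 1 library left out. For the difference between phenelzine states 4 were called, 58 by DESeq2, 1 with all 16 libraries in the fit and 3 to 18 with 1 library left out (18 without combination 4, 11 without nab-paclitaxel 3, 8 without combination 2). For mouse genes 0 were called, 77 by DESeq2, 6 without a filter, 1 by limma-voom and 0 to 11 with 1 library left out (11 without combination 4). For the mouse difference 0 were called, 14 by DESeq2 and 0 to 17 with 1 library left out (17 without combination 4). The share difference was 3.58 to 17.97 points with 1 library left out. The cause of these shifts was not tested. A fit that leaves 1 weak library in a group takes its spread as that of the others. With the replicate number as a block, 55 and 2 human and 5 and 6 mouse genes were called, and ENSG00000117983, ENSG00000173110 and ENSG00000204388 each had an adjusted p of 0.0662. The named rises in ranks 1, 4, 6 and 10 lost their calls with that block. So did the named falls in ranks 1, 2, 4, 6, 7, 8 and 10, and the other named rises and falls kept theirs. Of the 10 listed mouse genes with the lowest p, 2 had an adjusted p of 0.0350 with that block. The labels do not say that equal numbers mark a shared batch, and not every same-numbered pair deviated together: of 13 pairs, 0 correlated over 0.1 in human genes (-0.0944 to 0.0958) and 10 in mouse genes (-0.131 to 0.288), among them all 4 pairs of vehicle with phenelzine. The numbers were therefore not used as pairs, and 3 and 5 of 12 libraries correlated best with their own number. The alternative without mitochondrial genes was not run, since symbols are needed.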
